A study of Mus musculus with 12 samples.

Results

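The 7 genes followed here encode the main deadenylases of the mouse: Cnot6l, Cnot6, Cnot7 and Cnot8 of the CCR4-NOT complex, Pan2 and its partner Pan3, and Parn. They were picked by gene symbol, with earlier results of these data known, as the enzymes among which compensation could occur when Cnot6l is lost. All 7 were found among the 23235 genes of the deposited table. All 7 also had a mean of at least 1 FPKM (fragments per kilobase of transcript, scaled to library size by the authors), as did 11667 genes in all, which were tested. The label "catalytic" does not hold for Pan3, which is known as the regulatory partner that binds RNA and recruits the Pan2 nuclease.

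The libraries hold polysome-bound RNA, the mRNA that sediments with ribosomes, from oocytes of C57BL/6 mice at postnatal day 21. Wild-type (WT) and Cnot6l-/- (knockout, KO) oocytes were taken at 3 stages, with 2 libraries for each of the 6 groups. Germinal vesicle (GV) oocytes, arrested before meiosis resumes, were labelled as taken 48 h after the gonadotropin PMSG. MI oocytes (first meiotic metaphase) had spent 8 h and MII oocytes (arrested at the second metaphase) 16 h in culture, so maturation took place in vitro. The labels name no Cre driver, do not say which part of Cnot6l is deleted, and do not say whether the libraries of a group came from separate animals or pools. The p-values therefore measure only the spread between these libraries, which may be technical.

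Deadenylases shorten the poly(A) tail of mRNAs, which lowers translation and starts decay. In CCR4-NOT, a CCR4-type enzyme (Cnot6 or Cnot6l) binds a CAF1-type enzyme (Cnot7 or Cnot8), which in turn binds the scaffold Cnot1, while Pan2-Pan3 is known for trimming long tails and Parn for a cap-binding, poly(A)-specific activity. The growing oocyte stores dormant mRNAs and transcribes little after full growth. During maturation some stored mRNAs gain a poly(A) tail through a cytoplasmic polyadenylation element (CPE) and enter polysomes, while others are deadenylated and cleared.

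The 3′ ends of the 7 mRNAs were read from the mm9 genome, because a CPE close to the poly(A) signal is the known sequence mark of mRNAs that are polyadenylated on maturation. The search used TTTTAT or TTTTAAT (the CPE) within 100 bases before the last AATAAA or ATTAAA (the signal) in the final 60 bases, on the gene's own strand. Each line below shows 30 bases, 5′ to 3′, with the CPE and the signal in capitals. The first 5 are the ends of the gene models in the deposited table.
Cnot7: ttaaggtacaTTTTATatcAATAAAaatac
Cnot8: tatgtTTTTAATtttgtaaAATAAAgattg
Pan2: acagcatgTTTTATaaAATAAAagtatttt
Pan3: ttTTTTAATaaagaattgcagaAATAAAct
Parn: tcaaaaagctgaaATTAAAgaaaatttcct
Cnot6l: ttccctgtaggcAATAAAtggccattttgc
Cnot6: tcatagccaaccAATAAAttcaatatctgt

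These stretches lie at chr8:41578390-41578419 (minus strand) for Cnot7, chr11:57932054-57932083 (plus) for Cnot8, chr10:127758365-127758394 (plus) for Pan2 and chr5:148360045-148360074 (plus) for Pan3. The stretch of Parn is chr16:13538057-13538086 (minus). Cnot6l and Cnot6 had no signal at the end of their deposited model, and the lines show the most distal end in GENCODE mouse release M1, at chr5:96499359-96499388 (minus) and chr11:49485011-49485040 (minus). All 7 stretches lie at the 3′ end of an annotated transcript.

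A CPE stood before the signal in 4 of the 7, starting 9 bases upstream of it in Cnot7, 14 in Cnot8, 8 in Pan2 and 20 in Pan3. The Parn, Cnot6l and Cnot6 ends had a signal and no CPE in the window searched. Among the 11666 tested genes on main chromosomes, 77.5% of the model ends held a signal, 15.7% a signal with a CPE within 100 bases and 7.5% one within 30 bases. The most distal Cnot7 end in GENCODE, which is a different end from the deposited one, had a signal and no CPE. Which end the oocyte uses was not measured.

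The deposited FPKM summed to between 884142 and 1663871 per library, and neither the factor that sets these totals nor the depth in reads is known. The median of all tested genes therefore moved between groups: from WT to KO it shifted by -0.06 at GV, 1.03 at MI and 0.81 at MII, on the log2(FPKM + 1) scale used for every difference here. A member's difference is given as deposited, and again relative to that median or after rescaling libraries to equal totals (TPM) or to equal medians over well-expressed genes (median scaling). Within a group, Pearson's r between the 2 libraries across genes was 0.865 to 0.949. All 14 oocyte markers were above 0 in every library, with summed FPKM of 36166 to 99361. Cumulus and granulosa markers summed to 303 to 327 FPKM in WT GV, 117 to 135 in WT MI and 55.4 to 66.5 in WT MII, and to 159 to 226, 147 to 178 and 88.1 to 131 in KO. Between 3 and 12 of these 15 markers were above 0, Foxl2 was at 0 in all 12 libraries and Has2 at or below 0.3 FPKM. Of 8 markers of theca, stroma, endothelium and blood, 1 or 2 were above 0. Pecam1 was above 0 in every library, at 13.1 to 70.2 FPKM. The follicle marker sum was lower at MII than at GV in both genotypes, and its part in the results below was not tested. Most of the GV sum was Inha, at 201 and 239 FPKM in WT and 113 and 152 in KO. At MII Inha was at 0 in both WT libraries and at 4.46 and 12.65 in KO. Cyp19a1 rose in KO from 8.87 and 16.97 at GV to 63.85 and 98.35 at MII, and overlapped between these stages in WT. The lower KO sum at MII thus rests on Inha. Single markers went both ways: of the 12 tested, Cyp19a1 was called higher and Ptx3 and Tnfaip6 lower in KO at MI. Of all tested genes, 27.9% were called higher and 0.463% lower at MI. At MII 2 of the 12 were called higher and 1 lower, against 25.4% and 3.2% of all tested genes. At MI the FPKM of Cyp19a1 was 36.5 and 32.8 in WT against 101 and 92.0 in KO, and that of Ptx3 32.1 and 40.2 against 11.2 and 3.71. Of all calls of KO minus WT, 98.4% were higher at MI and 88.8% at MII as deposited, against 75.7% and 73.3% under TPM and 46.8% and 65.9% under median scaling.

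**Figure D1:**
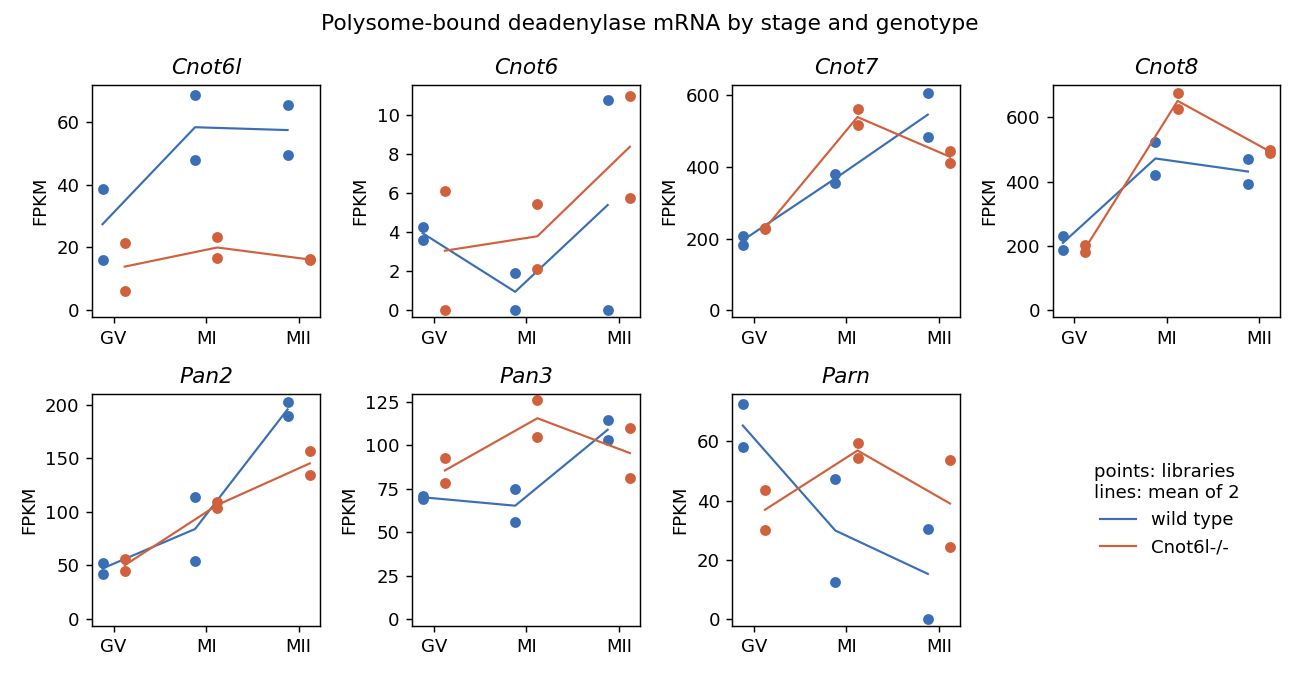
FPKM as deposited (y axis, linear from 0) of each of the 7 genes at GV, MI and MII; points are libraries, lines join the means of 2, blue is wild type and orange Cnot6l-/-. Cnot7 reaches 608 and Cnot8 676 FPKM, Cnot6 stays at 11 or below, and Cnot6l is lower in Cnot6l-/- at MI and MII without overlap.

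Cnot6l, the CCR4-type enzyme removed in the knockout, lies on the minus strand of chromosome 5 (mm9, 96505816 to 96591009). At GV it had 38.7 and 16.1 FPKM in the WT and 6.28 and 21.6 in the KO libraries. At MI these were 68.5 and 47.9 against 23.5 and 16.5, and at MII 65.2 and 49.4 against 16.4 and 16.0. The KO libraries lay below all WT libraries at MI and at MII, but at GV KO replicate 2 was above WT replicate 2. The genotype could thus not be read from this gene at GV, and no KO library was at 0. Whether the remaining signal comes from exons outside the deletion was not tested. In these samples, less of an mRNA and less of it on ribosomes cannot be told apart.

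Averaged over stages, Cnot6l was lower in KO by -1.42 ± 0.33 (SE; 95% interval -2.15 to -0.69; limma adjusted p = 0.00911), against 1.5% of all tested genes called lower in that comparison. That made it the only member called there, and it was called under each alternative run, with values from -1.89 to -1.15 and a limma adjusted p of at most 0.0446. By stage, GV gave a difference of -1.02 ± 0.57, MI one of -1.49 ± 0.57 and MII one of -1.75 ± 0.57. Only MII passed the threshold (limma adjusted p = 0.0425, against 0.0726 at MI and 0.626 at GV). At MI the same difference was called with only the groups compared in the fit (limma adjusted p = 0.0475) and without KO GV replicate 1 (0.0412) or replicate 2 (0.0434). Median scaling took it to -2.42, which was called as well (limma adjusted p = 0.0427). The MII call was lost, at 0.0524 to 0.141, without either WT MII, either KO MII, either WT MI or either KO MI library, while the difference stayed between -1.95 and -1.74 except without WT MII replicate 1 (-1.55). Relative to the median of all genes, Cnot6l was lower by -2.52 at MI and -2.56 at MII, the lowest 0.909% and 1.61% of tested genes.

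Cnot6, the paralog of Cnot6l and the other CCR4-type enzyme, was the lowest of the 7 genes. It lies on chromosome 11 (minus strand, 49488212 to 49526212). WT libraries had 4.30 and 3.61 FPKM in the GV libraries, 1.91 and 0 in those of MI and 0 and 10.8 in those of MII, and KO libraries 0 and 6.12, 5.46 and 2.14, and 5.77 and 11. At 3 of 12 libraries it was listed at 0, and at GV and MII the genotypes overlapped. At MI both KO libraries were above both WT libraries. Its differences of -0.89 ± 1.21 at GV, 1.40 ± 1.21 at MI and 1.39 ± 1.21 at MII did not pass the threshold (limma adjusted p from 0.387 to 0.916). The intervals run from -1.29 to 4.09 at MI and from -1.30 to 4.08 at MII, so neither a large rise nor a fall of Cnot6 could be told at this precision.

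Reads of Cnot6l and Cnot6 can be told apart over most of their length: their coding sequences are 73.7% identical over 1651 aligned bases, and the longest identical run is 20 bases. Cnot6l made up 81.7% to 100% of the summed FPKM of this CCR4 pair in the WT libraries. In KO the GV libraries had shares of 100% and 77.9%, the MI libraries 81.1% and 88.5%, and the MII libraries 73.9% and 59.3%. The KO shares were below those of WT at MI and MII, and at GV they overlapped. A loss of Cnot6l lowers its share without any change of Cnot6.

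Cnot7, a CAF1-type enzyme on chromosome 8 (minus strand, 41578390 to 41596658), ranked 533 of 23235 genes by mean FPKM. GV libraries had 208 and 183 FPKM in WT and 227 and 230 in KO. MI libraries had 354 and 381 against 518 and 560, and MII libraries 484 and 608 against 412 and 445. As deposited, each WT stage was above the one before without overlap, while in KO the highest stage was MI. The KO change from MI to MII, -0.33 as deposited, turned to 0.11 under TPM and 0.25 under median scaling.

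At MI, 2 of the 7 genes were called higher in KO, Cnot7 and Pan3, where 27.9% of all tested genes were called higher. Cnot7 was higher as deposited by 0.55 ± 0.14 (limma adjusted p = 0.0196, KO above WT in all libraries), but lower than the median of all genes by -0.48, and under TPM and median scaling its difference turned to -0.10 and -0.41 without a call. The call was also lost without WT MI replicate 1 (0.50, limma adjusted p = 0.0835), KO MI replicate 1 (0.61, 0.0708) or KO MI replicate 2 (0.49, 0.124).

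At MII, 1 of the 7 genes, Cnot6l, was called lower (3.2% of all tested genes) and none higher (25.4%). Cnot7 was lower in KO by -0.34 ± 0.14 (limma adjusted p = 0.105), with both KO libraries below both WT libraries. It was called lower under TPM (-0.79, limma adjusted p = 0.00303), median scaling (-0.95, 0.000816) and without WT MII replicate 1 (-0.50, 0.0294). At GV none of the 7 was called, where 1.56% of all tested genes were called in either direction by limma. At an unadjusted limma p below 0.05 the count was 0 as well, against 378 higher and 844 lower among all 11667 tested genes. Cnot7 differed at GV by 0.23 ± 0.14.

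Cnot8, the other CAF1-type enzyme (chromosome 11, plus strand, 57917655 to 57932096), ranked 499 by mean FPKM. WT libraries had 189 and 231 FPKM in the GV libraries, 421 and 523 in those of MI and 392 and 471 in those of MII, and KO libraries 203 and 182, 626 and 676, and 488 and 499. KO was above WT at MI and at MII without overlap, and the genotypes overlapped at GV. The difference of 0.47 ± 0.16 at MI just missed the threshold (limma adjusted p = 0.0515). It turned to -0.18 under TPM and -0.50 under median scaling, and it was called as higher without WT MI replicate 2 (0.63, 0.0441), WT MII replicate 1 (0.47, 0.033) or WT MII replicate 2 (0.47, 0.0334). At MII it was 0.20 ± 0.16 (limma adjusted p = 0.398), and -0.25 and -0.41 under the same scalings.

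The values of Cnot8 carry a limit of their own. A stretch at 74228101 to 74228862 of mm9 chromosome 8 matches 763 of the 879 bases of its coding sequence (86.8%) at 97.8% identity, and neither GENCODE M1 nor the deposited table has a gene there. How the authors' counting placed reads that match both is not given in the sources used here. Cnot7 and Cnot8 themselves are 72.4% identical over 855 aligned coding bases, with a longest identical run of 20 bases.

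**Figure D2:**
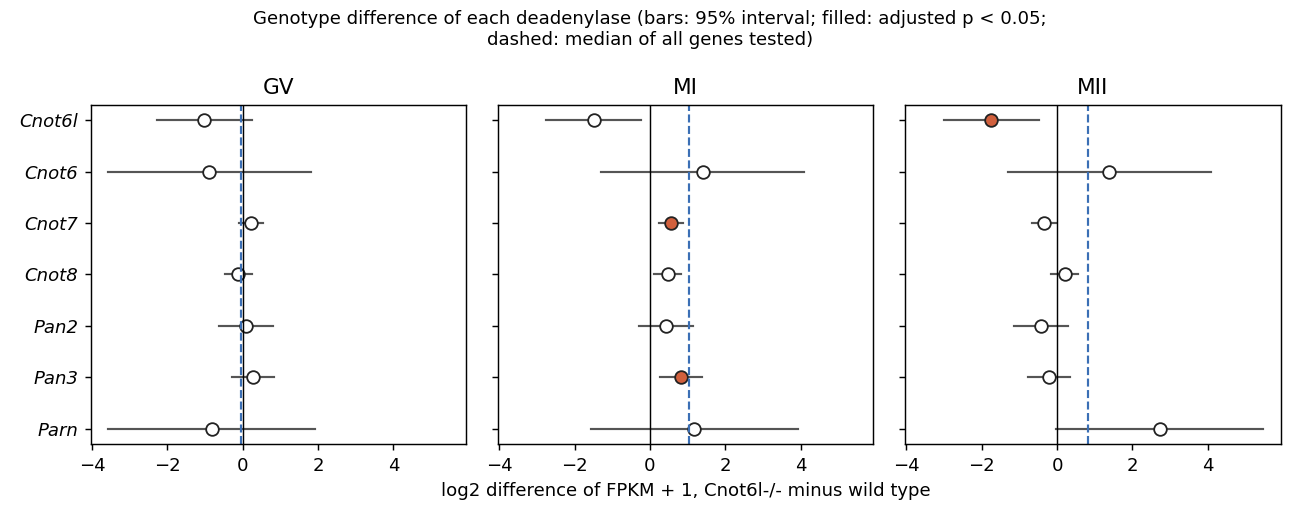
Log2 difference of FPKM + 1, Cnot6l-/- minus wild type (x axis), for each gene (rows) at GV, MI and MII, as deposited; points are limma estimates, bars 95% intervals, filled points have an adjusted p below 0.05, and the dashed line is the median of all tested genes. At MI the points of Cnot7, Cnot8, Pan2 and Pan3 lie between 0 and the median of 1.03, so each turns negative when taken relative to it, and Cnot6l lies left of 0 at all 3 stages.

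Pan2, the nuclease of the Pan2-Pan3 complex (chromosome 10, plus strand, 127740391 to 127758414), had 52.6 and 41.9 FPKM in the GV libraries of WT, 114 and 54.3 in those of MI, and 189 and 202 in those of MII. KO libraries had 44.8 and 55.7, 103 and 109, and 134 and 156. Both genotypes were highest at MII, where the KO libraries lay below the WT libraries, and the genotypes overlapped at GV and MI. No stage passed the threshold, with differences of 0.09 ± 0.32 (GV), 0.43 ± 0.32 (MI) and -0.43 ± 0.32 (MII) (limma adjusted p from 0.321 to 0.978). At MI it turned to -0.21 under TPM and -0.53 under median scaling, and it was called higher, at 0.96 (0.0418), without WT MI replicate 1. At MII median scaling called it lower (-1.03, limma adjusted p = 0.0422).

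Pan3, its RNA-binding partner (chromosome 5, plus strand, 148242156 to 148360077), was at a similar level to Pan2. WT libraries had 69.1 and 71.0 FPKM in the GV libraries, 55.7 and 74.7 in those of MI and 115 and 103 in those of MII, and KO libraries 78.1 and 92.8, 105 and 126, and 80.9 and 110. KO was above WT at GV and MI without overlap, and the genotypes overlapped at MII. At MI the rise of 0.82 ± 0.25 was called (limma adjusted p = 0.0339). It was -0.20 relative to the median of all genes, 0.18 under TPM and -0.13 under median scaling; neither rescaled value was called, and the value relative to the median has no test. The call was also lost without WT MI replicate 1 (0.62, limma adjusted p = 0.157), KO MI replicate 1 (0.96, 0.0878) or KO MI replicate 2 (0.69, 0.185). At MII Pan3 differed by -0.20 ± 0.25 as deposited and was called lower under median scaling (-0.80, limma adjusted p = 0.0392). The ratio of Pan2 to Pan3 within a library was 0.761 and 0.591 in WT GV and 1.65 and 1.96 in WT MII, against 0.574 and 0.600 and 1.65 and 1.42 in KO, so in both genotypes the nuclease passed its partner between GV and MII.

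Parn, the cap-binding deadenylase (chromosome 16, minus strand, 13538057 to 13668263), had 58.3 and 72.5 FPKM in the GV libraries of WT, 47.3 and 12.6 in those of MI, and 0 and 30.6 in those of MII. KO libraries had 43.7 and 30.1, 59.5 and 54.4, and 24.4 and 53.7. KO was below WT at GV and above it at MI, and the genotypes overlapped at MII, where the WT replicates were far apart. The differences of -0.82 ± 1.24, 1.18 ± 1.24 and 2.73 ± 1.24 did not pass the threshold (limma adjusted p = 0.928, 0.477 and 0.129). Without WT MII replicate 2, which leaves the library listed at 0 as the only WT MII value, the MII difference became 5.22 (limma adjusted p = 0.000495) and the stage average 1.86 in place of 1.03 (0.00369), so both rest on WT MII replicate 1. The WT change from MI to MII became -4.68 in place of -2.19 in that fit (limma adjusted p = 0.0012), and its genotype difference 4.04 in place of 1.55 (0.0241).

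Across the 6 genes other than Cnot6l, the summed FPKM was 592 ± 15.4 (SD, n = 2) in WT GV and 597 ± 0.544 in KO GV. It was 1020 ± 36.5 against 1472 ± 78.3 at MI and 1302 ± 173 against 1209 ± 92.2 at MII, so the genotypes were apart at MI alone, on the deposited scale. The KO minus WT difference of Cnot6l is set beside theirs in the plot of genotype differences. The median over all 7 counts Cnot6l, the gene removed in the knockout, which lies below that median at each stage and so lowers it. At MI the median over the 7 was 0.55 and that of all tested genes 1.03. At MII these medians were -0.20 and 0.81, and at GV -0.12 and -0.06. At MII the estimates of Cnot6, Cnot8 and Parn were higher in KO and those of Cnot7, Pan2 and Pan3 lower. Averaged over stages, none of the 6 other genes was called in either direction, with values from 0.03 (Pan2) to 1.03 (Parn). In that comparison 30.7% of all tested genes were called higher and 1.5% lower, and their median was 0.61. For Cnot7 that average was 0.15 (95% interval -0.04 to 0.33) and for Cnot8 0.18 (-0.02 to 0.39). Median scaling turned both to called decreases, Cnot7 to -0.35 (limma adjusted p = 0.0148) and Cnot8 to -0.31 (0.039), while under TPM they were -0.14 and -0.10 and not called.

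**Figure D3:**
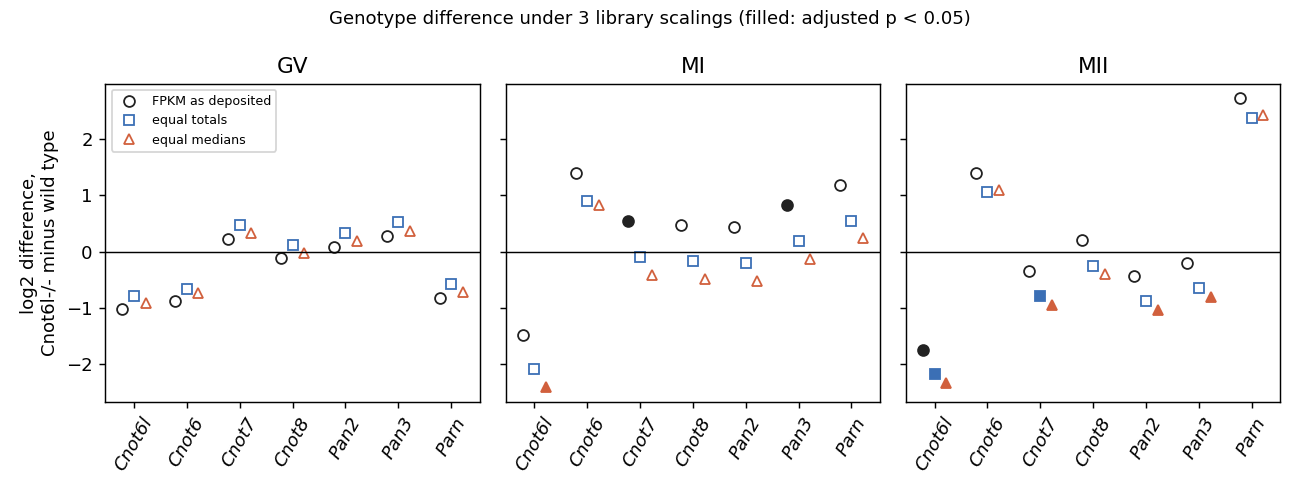
Log2 difference, Cnot6l-/- minus wild type (y axis), of the 7 genes (x axis) at GV, MI and MII with FPKM as deposited (circles), rescaled to equal totals (squares) or to equal medians (triangles); filled symbols have a limma adjusted p below 0.05. At MI the filled circles of Cnot7 and Pan3 (0.55 and 0.82) have no filled square or triangle and Cnot7, Cnot8 and Pan2 cross 0; Cnot6l is below 0 at every stage in all 3 scalings, with a filled triangle at MI (-2.42).

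The share of all FPKM rests on each library's total, as TPM does. The 7 genes together took 0.0495% and 0.0483% of all FPKM in the WT GV libraries, 0.102% and 0.103% in those of MI, and 0.140% and 0.167% in those of MII. In KO they took 0.0565% and 0.0577%, 0.0881% and 0.0928%, and 0.0958% and 0.106%. The KO libraries were above WT at GV and below WT at MI and MII, with no overlap at any stage. With 2 libraries against 2, an exact permutation test, two-sided, cannot go below p = 0.333.

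Shares and ratios between members of a library, unlike the share of all FPKM, do not depend on the library total. Within the CAF1 pair, Cnot7 made up 52.4% and 44.2% of the summed Cnot7 and Cnot8 FPKM in the WT GV libraries, 45.7% and 42.2% in those of MI, and 55.3% and 56.3% in those of MII. In KO the GV libraries had 52.8% and 55.9%, the MI libraries 45.3% and 45.3%, and the MII libraries 45.8% and 47.1%. The MII libraries differed without overlap, by more than the spread within either group, with Cnot8 the larger part in KO and Cnot7 in WT. At MI the KO share lay within the WT range.

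The CAF1 pair exceeded the CCR4 pair in every library. The ratio of their summed FPKM was 9.23 to 20.9 in the 6 WT libraries, while the KO libraries had 68.5 and 14.9 (GV), 39.5 and 66.3 (MI), and 40.7 and 34.9 (MII). It was higher in KO than in any WT library at MI and MII, and the GV values overlapped. Cnot6l made up most of the CCR4 pair in WT, so its loss raises this ratio without any change of Cnot7 or Cnot8. As deposited, the mean CAF1 sum was 840 in WT and 1190 in KO at MI, and 977 and 921 at MII. The mean CCR4 sum was 59.2 in WT and 23.8 in KO at MI, and 62.7 and 24.6 at MII.

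**Figure D4:**
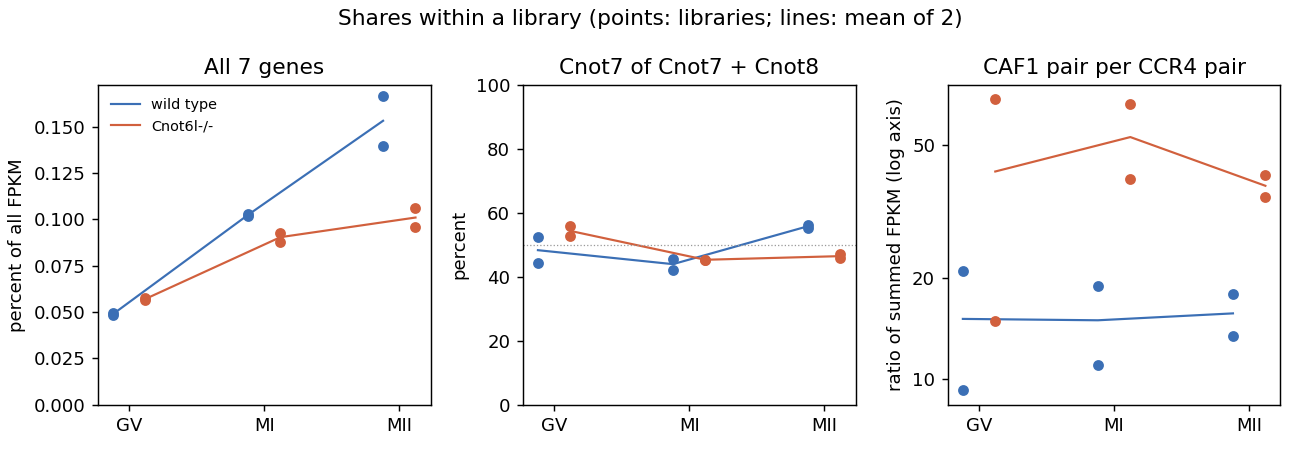
Left: all 7 genes as percent of all FPKM; middle: Cnot7 as percent of Cnot7 + Cnot8 (dotted line at 50); right: summed Cnot7 and Cnot8 FPKM divided by summed Cnot6l and Cnot6 FPKM on a log axis; points are libraries, lines means of 2, blue wild type and orange Cnot6l-/-. The left share reaches 0.140% and 0.167% in wild-type MII against 0.0958% and 0.106% in Cnot6l-/-, and at MII the Cnot7 share is 55.3% and 56.3% against 45.8% and 47.1%.

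From GV to MI in WT, 2 of the 7 genes were called higher, against 3.06% of all tested genes, whose median fell by -0.87. Cnot7 rose by 0.91 ± 0.14 (limma adjusted p = 0.00161) and Cnot8 by 1.16 ± 0.16 (0.000734). In KO the same step gave 2 calls higher, against 8.89% of all tested genes and a median of 0.26: Cnot7 rose by 1.23 ± 0.14 (limma adjusted p = 0.000294) and Cnot8 by 1.75 ± 0.16 (5e-05). Both genes were called as rising from GV to MI in both genotypes under every alternative run for these comparisons. Cnot6l rose in WT by 1.16 ± 0.57 without overlap and was not called (limma adjusted p = 0.165), and in KO by 0.69 ± 0.57 with overlap. Cnot6 (-1.53 ± 1.21) and Parn (-1.37 ± 1.24) were lower at MI in WT without overlap, and not called (limma adjusted p = 0.377 and 0.442). In KO these 2 were higher, by 0.76 ± 1.21 and 0.63 ± 1.24, and not called. Pan2 was above the GV range of its genotype in 4 of 4 MI libraries, by 0.73 ± 0.32 in WT and 1.07 ± 0.32 in KO, and missed the threshold (limma adjusted p = 0.123 and 0.0641). It was called in WT under median scaling (1.40, 0.017) or without WT MI replicate 2 (1.26, 0.0139), and in KO with only the groups compared (1.07, 0.0402) or without WT MI replicate 1 or 2 (1.07, 0.0164 and 0.0152).

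From MI to MII in WT, 2 of the 7 genes were called higher, against 5.68% of all tested genes. Pan2 rose by 1.30 ± 0.32 (limma adjusted p = 0.0153) and Cnot7 by 0.56 ± 0.14 (0.019). The Pan2 call was lost without WT MI replicate 2 (0.78, 0.0832), and the Cnot7 call was lost without replicate 1 of WT MI (0.51, 0.088) or replicate 2 of WT MII (0.40, 0.086). Pan3 was higher by 0.74 ± 0.25 (limma adjusted p = 0.0587) and was called under TPM (0.99, 0.0156) and median scaling (0.97, 0.018). Cnot6l and Cnot8 overlapped between MI and MII in WT, with differences of -0.01 ± 0.57 and -0.13 ± 0.16. In KO none of the 7 genes was called between MI and MII by limma, where 7.35% of all tested genes were called in either direction. At an unadjusted limma p below 0.05 the count was 2, Cnot7 (-0.33) and Cnot8 (-0.40), both lower. By that threshold 56 of all 11667 tested genes were higher and 2440 lower. Cnot7 and Cnot8 turned to small positive values under TPM (0.11 and 0.04) and median scaling (0.25 and 0.18).

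The stage changes themselves were compared between genotypes. For GV to MI no member passed the test of the difference, where limma called 14.7% of all tested genes in either direction. At an unadjusted limma p below 0.05 there was 1, Cnot8, at 0.59 ± 0.23 (limma adjusted p = 0.109). By that threshold 3585 of all 11667 tested genes were higher and 102 lower. Under TPM and median scaling the Cnot8 value was -0.30 and -0.47. For MI to MII, 1 of the 7 was called lower, against 3.71% of all tested genes: the change of Cnot7 was 0.56 in WT and -0.33 in KO, a difference of -0.89 ± 0.20 (limma adjusted p = 0.0281). Relative to the median of all genes this difference was -0.64. It kept its sign under every alternative run but was not called under TPM (-0.69, limma adjusted p = 0.081) or median scaling (-0.53, 0.154). It was also lost without either WT MI, either KO MI or either KO MII library, at -0.95 to -0.84 with limma adjusted p of 0.0512 to 0.123. The difference for Pan3 was -1.03 ± 0.35 (0.128) and that for Pan2 -0.86 ± 0.45 (0.339).

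The other genes of the pathway were taken from lists, whose counts are read against the 27.9% of all tested genes called higher at MI and 25.4% at MII. Over all 11667 tested genes the rescaled counts were 490 higher and 157 lower at MI under TPM, and 252 and 287 under median scaling. At MII they were 2055 and 748 under TPM, and 1877 and 970 under median scaling. Of 6 further genes listed as poly(A) nucleases, 2 were called higher and none lower at MI, and 1 higher and 1 lower at MII. Whether each of the 6 acts on poly(A) in oocytes was not tested. At an unadjusted p below 0.05 these counts were 5, 0, 2 and 1. By that threshold 4910 of all 11667 tested genes were higher and 100 lower at MI, and 4043 and 584 at MII. Under TPM none was called at MI, and 1 higher and 2 lower at MII, and under median scaling none, and 1 higher and 3 lower. Pnldc1, a Parn relative known from piRNA trimming, had 10.1 and 7.42 FPKM in WT MI and 52.5 and 46.4 in KO MI, and 1.38 and 0 against 20.3 and 11.3 at MII. Its differences were 2.38 at MI and 3.39 at MII. The latter was called under TPM (3.08) and median scaling (3.17) too, the former under neither (1.74 and 1.46). Ccrn4l, which encodes nocturnin, was lower in KO at MII by -1.07 (326 and 333 FPKM in WT, 210 and 117 in KO) and was called under both scalings, at -1.52 and -1.67. Angel2 was higher at MI by 1.02, which was not called under TPM (0.37) or median scaling (0.06).

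Of the 8 non-catalytic subunits of CCR4-NOT, 4 were called higher at MI and 3 at MII, and none lower at either. At an unadjusted p below 0.05 the counts were 7 and 3 higher and 0 lower. Among all 11667 tested genes they were 4910 and 4043 higher and 100 and 584 lower. Their median difference at MI was 1.25, near that of all genes (1.03), and at MII 0.23 against 0.81. Under TPM none was called at MI and 2 at MII, and under median scaling none and 2. The scaffold Cnot1 had 10.2 and 6.83 FPKM in WT MI and 21.4 and 23.7 in KO MI, and 2.92 and 4.65 against 13.5 and 13.8 at MII. Its differences of 1.33 and 1.64 were called as deposited and not under TPM (0.71 and 1.24) or median scaling (0.43 and 1.14). Cnot10, a subunit that binds the Cnot1 N-terminal region, was higher at MII by 3.35, with 0 and 0.66 FPKM in WT and 8.90 and 16.4 in KO. Rqcd1, the older symbol of the scaffold-binding subunit Cnot9, was higher at MII by 2.10, with 13.8 and 4.46 FPKM against 32.8 and 43.1. Both remained called at MII under TPM (3.06 and 1.68) and median scaling (3.19 and 1.56).

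Of 22 listed adaptors that bring deadenylases to mRNAs, 18 were tested. At GV 1 was called higher (Btg4, by 0.26), against 0.163% of all tested genes, at MI 8 and at MII 7, with none lower on the deposited scale, where an unadjusted p below 0.05 gave 1, 9 and 8 higher and 1, 0 and 0 lower. Of all tested genes, 378, 4910 and 4043 were higher by the unadjusted threshold, and 844, 100 and 584 lower, in the same stage order. Under TPM 1 was lower and none higher at MI, and 5 were higher and 1 lower at MII. Under median scaling 2 were lower and none higher at MI, and 4 higher and 1 lower at MII. Btg4, the oocyte adaptor that binds Cnot7 and Cnot8, was by far more abundant than any member, with 3269 and 3124 FPKM in WT GV against 3829 and 3813 in KO GV, 6379 and 6704 FPKM in WT MI and 7094 and 7333 in KO MI, and 4836 and 5113 against 8494 and 8474 at MII. Its difference at MI, 0.14 as deposited, turned to called decreases under TPM (-0.51) and median scaling (-0.83), while that at MII, 0.77, remained a called increase (0.32 and 0.17). Tob2, an antiproliferative adaptor of the same family, was higher at MII by 3.09, with 15.0 and 4.19 FPKM in WT and 71.5 and 82.2 in KO, and was called under TPM (2.66) and median scaling (2.54). Tob1 was higher at MI by 2.55, with 1.63 and 7.96 FPKM in WT and 24.4 and 30.7 in KO. Tnrc6a, a microRNA-pathway scaffold, was higher at MI by 2.45. It had 0.28 and 0.23 FPKM in WT, near the floor, and 3.22 and 10.1 in KO. Neither gene was called at MI under TPM (1.91 and 1.88) or median scaling (1.68 and 1.87).

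Of 12 listed poly(A)-binding proteins and their partners, 9 were tested. At GV 1 was called lower, Pabpc1l, the cytoplasmic poly(A)-binding protein of oocytes, by -1.13 (371 and 399 FPKM in WT, 190 and 162 in KO), against 1.4% of all tested genes called lower, and this was called under TPM (-0.89) and median scaling (-1.03). At MI 4 were called higher, against 1 higher and 1 lower under TPM and none higher and 1 lower under median scaling. At MII 5 were called higher and none lower, and 4 higher under each of the 2 scalings. At an unadjusted p below 0.05 the MII counts were 6 and 0, against 4043 and 584 of all 11667 tested genes. Paip2, an inhibitor of poly(A)-binding protein, was higher at MII by 2.52, with 68.9 and 102 FPKM in WT and 512 and 458 in KO. Its relative Paip2b was higher by 2.32 and the oocyte-enriched Pabpn1l by 1.99, with called values of 1.88 and 1.54 under TPM and 1.74 and 1.38 under median scaling. Pabpc1l was higher at MII by 1.64, with 41.3 and 39.7 FPKM against 127 and 129, the opposite of its GV direction, and was called under both scalings (1.19 and 1.04).

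Genes with profiles most like each member were named by Pearson's r over the 12 libraries after subtracting each library's median, among about 6220 candidates with a mean of at least 10 FPKM. These r describe the 12 libraries, which share groups and scaling, and carry no test. Cnot7 was most like Klhl9, Trim61 and Orc6 (r = 0.993 to 0.990), and Cnot8 most like Ppt2, Hnrnpc and Cxcr3 (0.997 to 0.990). Pan2 was most like Wdr20a and the spindle genes Tpx2 and Bub1b (0.985 to 0.984), and Pan3 had r of 0.974 with Lrrc16a and 0.973 with Usp19. Cnot6l was most like Tex12, Serp1 and Kctd5 (0.962 to 0.949), and Parn had r of 0.938 with Sergef and 0.927 with Ccdc91. Cnot6 had the lowest top value, with Pnpla6, Akap10 and Rnf115 (0.840 to 0.834). Among the members, Cnot7, Cnot8, Pan2 and Pan3 had r of 0.809 to 0.957 with one another, and Cnot6l had r of 0.679 to 0.742 with these 4. Parn had r of -0.526 to -0.234 with these 4 and -0.358 with Cnot6l.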

How the data were processed

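Polysome-bound RNA of 12 oocyte libraries was measured by the authors as FPKM per gene, which they deposited as a table of all libraries and, with the same values, library by library. The submitters' processing notes name Cufflinks 2.2.1, Bowtie2 2.1.0, TopHat2 2.0.11 and CASAVA 1.8 and the build mm9, without their roles. Per the labels' protocols, libraries were made with Tn5 from 500 pg of pre-amplified cDNA. Read numbers, filters and the annotation: not given in the sources used here. Ratios of low FPKM between libraries pile up at single values, as whole reads would give, but the best ratio of steps to KO MI replicate 1 was 0.719 or 1.44 for WT MI replicate 1 and 2.07 or 1.02 for WT MII replicate 1, so depth was not recovered and precision rests on replicates.

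The analysis used log2(FPKM + 1) of the 11667 genes whose mean FPKM reached 1. The fit, with limma 3.58.1 (R 4.3.3), had 6 group means (residual df 6, prior df 4.27, abundance trend) and 10 contrasts. A gene counts as called where its two-sided p, adjusted over all tested genes by Benjamini-Hochberg, is below 0.05. Fold changes of low genes are understated by the pseudocount. The fit was tested on simulated data that hold no shift of whole libraries, so that test does not bear on the scaling. The members, gene lists and rules were chosen with earlier results of these data known. Named genes are the 7 members, up to 3 called genes per list with the largest KO minus WT difference, Btg4, Cnot1 and Pabpc1l, and the 3 tested genes most like each member, of which some are not reported here. Alternatives were a pseudocount of 0.1, no filter, TPM, median scaling, no abundance trend, only the groups compared, a replicate block, and leaving out each library. Ends were read from mm9 with Biopython 1.88, and copies were sought with BLAST 2.17.0. Protein sequences were not used here.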

Additional observations from a re-analysis of the deposited data

Results flagged for a closer look

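The change of Cnot7 from MI to MII differed between the genotypes, with a log2 difference of -0.89 (KO minus WT, limma adjusted p = 0.0281), by the test of the difference itself. As deposited, Cnot7 went from 354 and 381 to 484 and 608 FPKM in WT, higher in 2 of 2 libraries. In KO it went from 518 and 560 to 412 and 445 FPKM, lower in 2 of 2. The fall in KO (-0.33) held on the deposited scale only: it turned to 0.11 with libraries at equal totals and 0.25 at equal medians. The genotype difference was -0.69 with libraries at equal totals and -0.53 at equal medians, neither of them called.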

How the results depend on the processing

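The lower Cnot6l level averaged over stages and the GV to MI rises of Cnot7 and Cnot8 in both genotypes kept their sign and their call under every alternative run for them. Counts of called members moved as follows, and the cause was not tested unless named. GV to MI in WT (2 called) gave 3 under median scaling, and in KO (2) 3 with only the groups compared, Pan2 being the gene gained in both. In that WT step higher calls over all 11667 tested genes went from 357 to 815 under median scaling. KO minus WT at MI (2 called) gave 0 under TPM, 1 under median scaling (Cnot6l) and 0 with no abundance trend. KO minus WT at MII (1) gave 0 with a pseudocount of 0.1, with no filter, with no abundance trend and with the replicate block, 2 under TPM and 4 under median scaling, where lower calls over all 11667 tested genes went from 373 to 748 and 970. The KO minus WT average (1) gave 3 under median scaling. MI to MII in WT (2) gave 1 with no filter, 1 with no abundance trend, 0 with only the groups compared, and 3 under TPM and under median scaling, which gained Pan3. Under these 2 scalings higher calls over all tested genes went from 663 to 1060 and 1047. MI to MII in KO (0) gave 1, Cnot8, with only the groups compared. The genotype difference of the MI to MII change (1) gave 0 under TPM, median scaling, no abundance trend and only the groups compared. For it, lower calls over all tested genes went from 433 to 299 under TPM and 202 under median scaling. Counts over all tested genes in the other alternatives, including those without 1 library, are not reported here, so member counts there lack that background. Leaving out 1 library gave 0 to 3 called members for KO minus WT at MI, 0 to 1 at MII, 1 to 2 for the average, 2 to 3 for GV to MI in each genotype, 1 to 2 for MI to MII in WT and 0 to 2 for the genotype difference of the MI to MII change.

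Rescaling moves all genes of a library by 1 factor, and signs of differences turn with it. Among these were both called KO minus WT increases at MI, Cnot7 (0.55) under both scalings and Pan3 (0.82) under median scaling. Calls of KO minus WT over all tested genes went from 3257 higher and 54 lower at MI to 490 and 157 under TPM and 252 and 287 under median scaling, and for the average from 3580 and 175 to 1927 and 432 and to 1252 and 760. Under TPM, Cnot8 was 0.12 for KO minus WT at GV. At MI, Cnot7 was -0.10, Cnot8 -0.18 and Pan2 -0.21, and at MII Cnot8 was -0.25. For the average, Cnot7 was -0.14, Cnot8 -0.10 and Pan2 -0.26. From GV to MI, Pan3 was -0.19 in KO and 0.15 in WT. From MI to MII, Cnot6l was 0.15, Cnot7 0.11, Cnot8 0.045 and Pan3 0.16 in KO, and Cnot6l 0.23 and Cnot8 0.12 in WT. For the genotype difference of the GV to MI change, Cnot7 was -0.57, Cnot8 -0.30, Pan2 -0.54 and Pan3 -0.34, and for that of MI to MII Cnot6 was 0.16. Under median scaling, Cnot7 was -0.41, Cnot8 -0.50, Pan2 -0.53 and Pan3 -0.13 for KO minus WT at MI, and Cnot8 -0.41 at MII. For the average, Cnot7 was -0.35, Cnot8 -0.31, Pan2 -0.46 and Pan3 -0.19. From GV to MI in WT, Pan3 was 0.55. From MI to MII, Cnot6l was 0.28, Cnot7 0.25, Cnot8 0.18 and Pan3 0.29 in KO, and Cnot6l 0.21 and Cnot8 0.094 in WT. For the genotype difference of the GV to MI change, Cnot7 was -0.74, Cnot8 -0.47, Pan2 -0.71 and Pan3 -0.50, and for that of MI to MII Cnot6l was 0.073, Cnot6 0.27 and Cnot8 0.090.

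Leaving out each library in turn changed the sign of uncalled values only. For KO minus WT at GV the range was -0.26 to 0.026 for Cnot8, -0.072 to 0.25 for Pan2 and -2.31 to 0.53 for Cnot6. It was -0.10 to 0.96 for Pan2 at MI, and -0.39 to 3.17 for Cnot6 and -0.42 to 0.017 for Pan3 at MII. For the average it was -0.15 to 0.20 for Pan2. From GV to MI it was -0.33 to 0.091 for Pan3 in WT, and -0.12 to 1.51 for Cnot6l and -0.66 to 2.17 for Cnot6 in KO. From MI to MII in WT it was -0.27 to 0.24 for Cnot6l, -0.28 to 0.029 for Cnot8, -4.68 to 0.30 for Parn and -0.77 to 2.79 for Cnot6. For the genotype difference of the GV to MI change it was -1.28 to 0.35 for Cnot6l and -0.18 to 0.87 for Pan2, and for that of MI to MII -1.79 to 1.77 for Cnot6 and -0.94 to 4.04 for Parn. A fit that leaves a group with 1 library assumes that it varies like the other groups.

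No effect shared by replicate number was seen: the correlation of replicate differences between groups was -0.03 to 0.05 over 15 pairs of groups, none over 0.1. These values cannot show whether libraries were prepared in pairs. With the replicate block, KO minus WT at MII lost the Cnot6l call (-1.75, limma adjusted p = 0.0533) and at MI Cnot8 was called (0.47, 0.0418), and no other call changed. Depth in reads is unknown, and 2 libraries per group limit the precision most for Cnot6 and Parn, which are listed at 0 in 3 and 1 of 12 libraries.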
